A study of Homo sapiens with 8 samples.

Results

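The mismatch repair genes MSH6, MSH3, PMS2, PMS1, MLH3 and EXO1 and the alkyl repair gene MGMT were examined in RKO, an established human colon carcinoma cell line that is known to be microsatellite unstable. The 7 genes were listed by name, not by their values, but with earlier results of these data known. They are 7 of the 57992 genes counted. Cells were transfected with a control siRNA (4 samples) or with an siRNA against A20, the ubiquitin-editing enzyme encoded by TNFAIP3 (4 samples). All 8 samples then received recombinant human wnt3a at 50 ng/mL for 24 hours, so there is no sample without wnt3a and none without siRNA. Polyadenylated RNA was sequenced as single reads, and the number of uniquely mapped reads per gene was deposited. Neither the labels nor the methods say whether the 4 replicates of a group were separate cultures, so p-values measure the spread between these samples, which may be technical.

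Total counts ranged from 21226451 to 34194273 per library, and 3 reads correspond to between 0.0875 and 0.141 CPM (reads per 1000000 reads, with library sizes scaled by TMM), for counting error only. TNFAIP3, the siRNA target, was at 4.92, 5.83, 5.59 and 5.54 CPM in control replicates 1 to 4 and at 3.47, 3.01, 3.40 and 3.43 CPM in the A20 siRNA samples. The groups did not overlap for TNFAIP3 (log2 fold change -0.71, adjusted p = 0.00258, edgeR). Of 7 epithelial markers, EPCAM, KRT8, KRT18 and CDX2 were above 1 CPM on average, CDH1 and KRT20 had no read in any library, and VIL1 had at most 1 read. Of the leukocyte markers PTPRC and CD3E were at 0 and CD68 had 18 to 35 reads. Of 4 fibroblast markers 3 were at 0 and COL1A1 had at most 4 reads, and of 3 endothelial markers CDH5 was at 0 and none had more than 3.

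Mismatch repair corrects bases that were mispaired or slipped during DNA replication. A MutS dimer recognises the error, in which MSH6 (mainly single mismatches and short loops) or MSH3 (mainly longer loops) is paired with a shared MutS subunit. A MutL dimer is then recruited, in which PMS2, MLH3 or PMS1 is paired with a shared MutL subunit. PMS2 and MLH3 carry an endonuclease site and PMS1 does not. EXO1 is the exonuclease that removes the stretch of new strand, which is then filled in and sealed. MGMT acts apart from this pathway and removes alkyl groups from guanine, and its promoter is often methylated in colon tumours. Loss of mismatch repair leaves short repeats unstable in length, which is the meaning of microsatellite instability.

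PMS1 and PMS2 each start within 1000 bases of a gene on the other strand, and the stretches between the starts are shown because both transcripts of a pair were counted here. The sequences were taken from the promoter windows of RefSeq on GRCh38.p14, which held all 7 genes, and the starts are those of the canonical transcripts of GENCODE 44. Each window spans 250 bases before to 50 bases after a start. Capitals mark CCAAT, a motif bound by the factor NF-Y, on either strand (ATTGG where it lies on the other strand). A window of this length held CCAAT in 34.6% of the 35116 windows of the table. The 110 bases between ORMDL1 and PMS1 (chr2:189784340-189784449, plus strand) held it at 2 places, and the 222 bases between AIMP2 and PMS2 (chr7:6009050-6009271, minus strand) at 3.
PMS1 and ORMDL1: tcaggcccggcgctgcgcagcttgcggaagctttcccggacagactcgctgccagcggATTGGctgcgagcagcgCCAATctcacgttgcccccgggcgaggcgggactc
PMS2 and AIMP2: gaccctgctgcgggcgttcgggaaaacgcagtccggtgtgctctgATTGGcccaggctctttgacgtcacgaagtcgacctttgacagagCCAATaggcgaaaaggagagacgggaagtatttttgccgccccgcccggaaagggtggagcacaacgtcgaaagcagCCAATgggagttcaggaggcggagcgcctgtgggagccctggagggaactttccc

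The motif of the E2F factors of the cell cycle was searched as TTTCGCGC or TTTGGCGC on both strands and was present in 1.15% of all windows. MSH3 and EXO1 were the only ones of the 7 genes with it in their window. In EXO1 the match began 4 bases after the start (chr1:241848199-241848228, plus strand), and the 30 bases around it are given with the match in capitals.
EXO1 site: aggtcagccTTTCGCGCgctgtgtaggcaa

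The window of MGMT was the richest of the 7 in CpG, the dinucleotide that is methylated when a promoter is silenced, with 45 CpG sites against a median of 14 over all windows (percentile 97.1). MLH3 had the fewest with 22, and none of the 7 windows held TATAAA, which 11.5% of all windows did. The 250 bases before the start of MGMT (chr10:129466991-129467240, plus strand) held 36 CpG sites, in capitals. These files hold no methylation data, and the transcript itself was measured as described below.
MGMT: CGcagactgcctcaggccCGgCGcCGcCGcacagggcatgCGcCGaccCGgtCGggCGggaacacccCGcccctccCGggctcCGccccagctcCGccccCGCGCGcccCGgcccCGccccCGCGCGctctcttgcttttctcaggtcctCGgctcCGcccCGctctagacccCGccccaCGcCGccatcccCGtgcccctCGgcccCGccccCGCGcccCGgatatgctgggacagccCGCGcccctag

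None of the 7 genes was silent. The lowest count in any library was 82 reads, for MSH3, and the highest was 5916, for MSH6, and all 7 passed the filter on low counts. Levels were compared between genes as CPM per kilobase of transcript. With the canonical transcript as length, the means over the 8 libraries fell from 40.8 ± 0.543 CPM per kilobase for MSH6 and 35.1 ± 1.03 for EXO1, through 11.9 ± 0.300 for PMS1, 5.81 ± 0.409 for MGMT, 3.82 ± 0.323 for MLH3 and 2.92 ± 0.226 for PMS2, to 0.865 ± 0.0490 for MSH3 (SD, n = 8). Each gene was above the next one in 8 of 8 libraries, and no ranges of neighbours overlapped. Among 13316 tested genes with a length, MSH6 was at percentile 85.5 and MSH3 at percentile 15.1 with the canonical transcript as length, and at percentiles 66.2 and 17.6 with the exons of all transcripts. RNA was taken from whole cultures, so fewer expressing cells and less RNA per cell cannot be told apart.

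**Figure D1:**
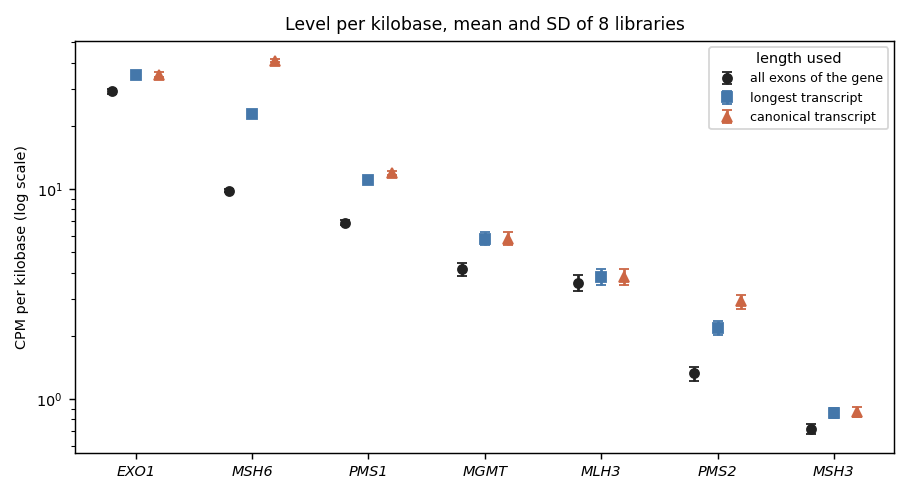
Level of each gene in CPM per kilobase on a log axis, as mean and SD of the 8 libraries, with the exons of all annotated transcripts, the longest transcript or the canonical transcript as length. MSH3 was lowest with each length, and MSH6 moved from 9.83 to 40.8 CPM per kilobase with the choice.

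The order from the third to the seventh gene was the same with all 3 lengths, whereas MSH6 and EXO1 changed places. With the exons of all annotated transcripts, EXO1 had 29.2 ± 0.860 and MSH6 9.83 ± 0.131 CPM per kilobase (SD, n = 8), where the exons annotated for MSH6 add up to 17722 bases against 4265 in its canonical transcript. With that length MGMT (4.16 ± 0.293) and MLH3 (3.58 ± 0.303, SD, n = 8) overlapped in their ranges. The order of MSH6 and EXO1 and the separation of MGMT from MLH3 rest on the length used.

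The MutS genes MSH6 and MSH3 were far apart in level. MSH6 (ENSG00000116062.14, chromosome 2, canonical transcript of 10 exons from 47783145 to 47806953, GRCh38) was at 175, 174, 172 and 179 CPM in control replicates 1 to 4 and at 172.5, 174, 172 and 175 CPM in the A20 siRNA samples. The A20 siRNA samples lay within the range of the control samples. The log2 fold change of A20 siRNA against control siRNA was -0.01 (standard error 0.02, 95% interval -0.06 to 0.03). The coefficient of variation of MSH6 was 1.76% in the control group and 0.734% in the A20 siRNA group, where counting error alone gives 1.47% at its depth. The last 34 bases of its canonical transcript overlap that of FBXO11 on the other strand, and since the strand setting of the counting is not given in the sources used here, reads there cannot be assigned.

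MSH3 (ENSG00000113318.9, chromosome 5, 24 exons, 80654652 to 80876815) was at 3.76, 3.72, 3.55 and 4.02 CPM in the control samples and at 4.02, 4.19, 3.65 and 3.86 CPM after A20 siRNA. The groups overlapped, and the log2 fold change was 0.07 (standard error 0.10, 95% interval -0.13 to 0.27). This was the widest interval of the 7 genes, at 82 to 138 reads per library. Per kilobase of the canonical transcript, MSH6 was between 43.3 and 50.4 times MSH3 in the single libraries, and between 12.5 and 14.6 times with the exons of all transcripts. The mean ratio was 48.5 ± 1.64 with control siRNA and 46.1 ± 2.63 after A20 siRNA (SD, n = 4 per group, canonical transcript), with overlapping groups.

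Among the MutL genes, PMS1 was the most abundant. It took between 62.0% and 66.6% of the summed level per kilobase of PMS1, MLH3 and PMS2 over the 8 libraries, MLH3 between 18.5% and 22.2%, and PMS2 between 14.4% and 17.0% (canonical transcripts). With the exons of all transcripts PMS1 took 56.7% to 61.6% and PMS2 10.2% to 12.1%. PMS1 (ENSG00000064933.16, chromosome 2, 13 exons, 189784450 to 189877629) was at 39.0, 38.4, 37.6 and 36.1 CPM in the control samples and at 37.6, 38.5, 37.2 and 36.9 CPM after A20 siRNA. The groups overlapped, with a log2 fold change of -0.01 (standard error 0.04, 95% interval -0.08 to 0.06). ORMDL1, a regulator of sphingolipid synthesis that starts beside it, had a log2 fold change of -0.01 (standard error 0.03).

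PMS2 (ENSG00000122512.14, chromosome 7, 15 exons, 5970925 to 6009049) was at 17.2, 13.9, 15.7 and 14.5 CPM in the control samples and at 14.8, 14.5, 14.8 and 13.5 CPM after A20 siRNA. Control replicate 1 was the highest library and A20 siRNA replicate 4 the lowest, and the groups overlapped. The log2 fold change was -0.09 (standard error 0.06, 95% interval -0.23 to 0.04). AIMP2, a scaffold protein of the tRNA synthetase complex that starts beside it, had a log2 fold change of 0.01 (standard error 0.05).

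**Figure D2:**
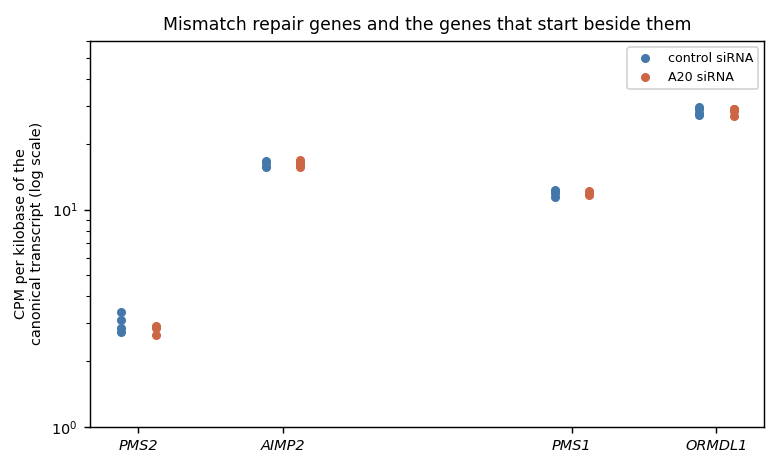
Level per kilobase of the canonical transcript on a log axis for PMS2 and PMS1 and for the genes that start beside them on the other strand, with 1 point per library. The partner was the higher gene in all 8 libraries for both pairs, by 4.71 to 6.13 times for AIMP2 and 2.22 to 2.47 times for ORMDL1.

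The level of PMS2 is less certain than the others because of its pseudogene copies. Of 15 annotated copies (PMS2CL and the PMS2P series), 8 had a read in some library and 7 had none. Together the copies held 363 to 601 unique reads per library, or 48.9% to 57.6% of the reads of PMS2 and its copies. PMS2CL was the largest, with 176 to 290 reads per library and 8.19 ± 1.10 CPM in the control samples against 9.17 ± 0.723 with A20 siRNA (SD, n = 4 per group). PMS2P3 had 2.16, 2.08, 1.89 and 1.95 CPM in the control samples and 2.60, 2.61, 2.62 and 2.21 CPM after A20 siRNA, with groups that did not overlap and an adjusted p of 0.204 (edgeR). Over all tested genes, 3.71% had every A20 siRNA library above every control library. Reads that map equally well to PMS2 and a copy are counted for neither.

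MLH3 (ENSG00000119684.15, chromosome 14, 13 exons, 75013775 to 75051467) had the largest positive difference of the 7 genes. It was at 32.8, 26.5, 27.4 and 27.3 CPM in control replicates 1 to 4 and at 31.8, 29.5, 31.9 and 31.9 CPM in the A20 siRNA samples. Control replicate 1 was the highest of all 8 libraries, while the other 3 control libraries were below every A20 siRNA library. The group means were 28.5 ± 2.91 and 31.3 ± 1.15 CPM (SD, n = 4 per group), which gave a log2 fold change of 0.13 (standard error 0.06, 95% interval 0.01 to 0.24, the interval not adjusted for the number of genes). It did not pass the threshold (adjusted p = 0.266, edgeR quasi-likelihood test, Benjamini-Hochberg adjusted).

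EXO1 (ENSG00000174371.16, chromosome 1, 16 exons, 241848204 to 241889939) was at 116, 119, 126 and 121 CPM in the control samples and at 119, 123, 125 and 118 CPM after A20 siRNA. The A20 siRNA samples lay within the range of the control samples. The log2 fold change was 0.01 (standard error 0.03, 95% interval -0.05 to 0.07).

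MGMT (ENSG00000170430.9, chromosome 10, 5 exons, 129467241 to 129770983) had the largest negative difference. It was at 25.9, 27.9, 28.8 and 30.8 CPM in the control samples and at 26.4, 26.9, 25.2 and 25.5 CPM after A20 siRNA. Control replicate 1 lay within the A20 siRNA range, and the other 3 control libraries were above every A20 siRNA library. The group means were 28.4 ± 2.03 and 26.0 ± 0.818 CPM (SD, n = 4 per group), which gave a log2 fold change of -0.12 (standard error 0.05, 95% interval -0.22 to -0.02). MGMT did not pass the threshold either (adjusted p = 0.224, edgeR quasi-likelihood test, Benjamini-Hochberg adjusted).

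**Figure D3:**
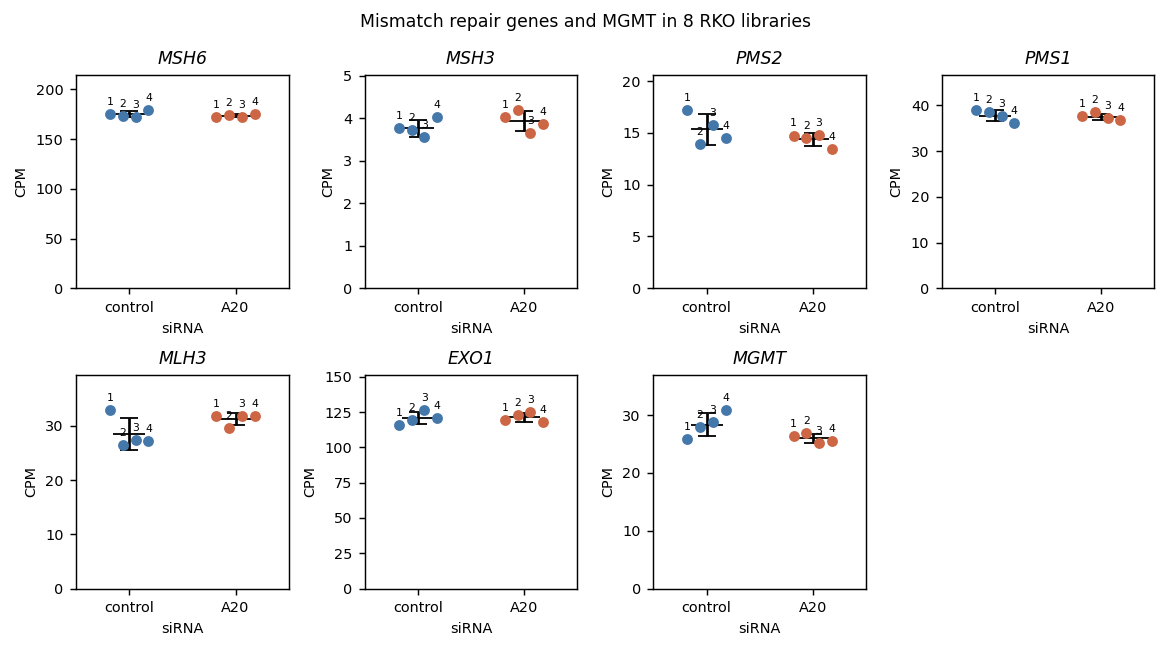
CPM of each gene in every library, with the replicate number above the point, and the mean and SD of each group of 4 as a bar with whiskers. All axes start at 0. Control replicate 1 stands above the other control libraries for MLH3 (32.8 against 26.5 to 27.4 CPM) and below them for MGMT (25.9 against 27.9 to 30.8 CPM).

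The comparison asks whether transcripts of mismatch repair differed after A20 knockdown in wnt3a-treated cells. At an adjusted p-value under 0.05, 0 of the 7 genes were called higher and 0 lower, where 0.634% of the 13412 tested genes were higher and 0.611% lower (edgeR quasi-likelihood test, Benjamini-Hochberg adjusted). limma-voom also called 0 of the 7, and DESeq2 called 0 of the 6 to which it gave an adjusted p-value, all but MSH3. At an unadjusted p under 0.05, edgeR gave 2 of the 7, MLH3 and MGMT, against 2171 of the 13412 genes. The adjusted p-values of the other 5 were 0.491 for PMS2, 0.774 for MSH3, 0.834 for MSH6, 0.904 for EXO1 and 0.931 for PMS1. The median log2 fold change of the 7 genes was -0.01, beside 0.00 (0.002749 before rounding) over all tested genes. For MSH6, PMS1 and EXO1 the bound farthest from 0 of any 95% interval was -0.08 on the log2 scale.

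The groups overlapped for all 7 genes, where 3.71% of the tested genes had every A20 siRNA library above every control library and 3.90% had every one below. An exact two-sided permutation test of log2 CPM, which cannot go below p = 0.0286 with 4 samples against 4, gave p = 0.0857 for MGMT and p = 0.143 for MLH3 (0.50 for both after adjustment for 7 tests). The p of the other 5 genes was between 0.257 and 0.771 in this permutation test.

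**Figure D4:**
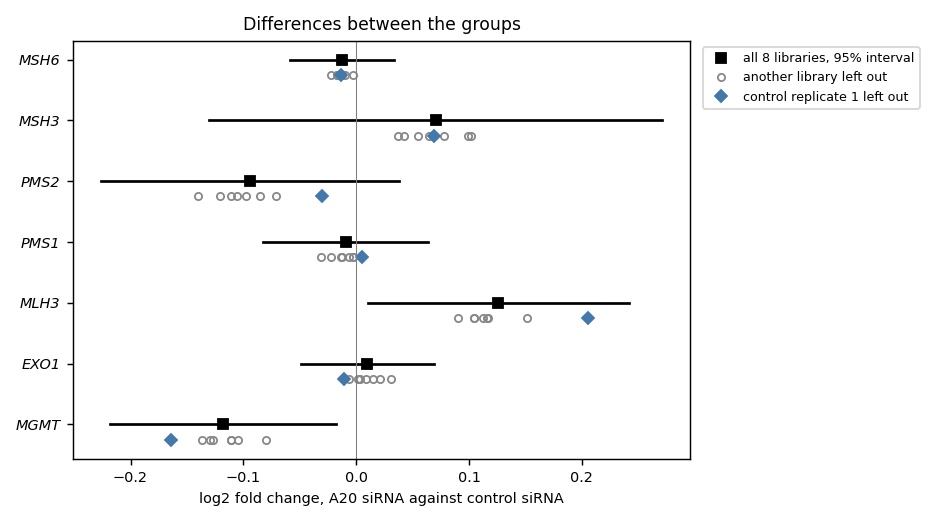
Log2 fold change of A20 siRNA against control siRNA for the 7 genes with its unadjusted 95% interval (squares and lines), and the values with 1 library left out (symbols below each line). MLH3 moved from 0.13 to 0.21 and MGMT from -0.12 to -0.16 when control replicate 1 was left out.

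For MLH3 and MGMT the call turned on 1 library. Without control replicate 1, MLH3 had a log2 fold change of 0.21 (adjusted p = 0.00596) and MGMT of -0.16 (adjusted p = 0.0326, edgeR quasi-likelihood test, Benjamini-Hochberg adjusted), so 2 of the 7 genes were called. In that fit 4.19% of 13529 tested genes were called higher and 3.18% lower, against 0.634% and 0.611% with all libraries. PMS2 moved towards 0 without this library, to -0.03. With any other library left out, none of the 7 was called.

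Control replicate 1 also stood apart in how counts varied with gene length. Spearman's rho across genes between a library's deviation from the mean of all libraries and exonic length was 0.0894 in control replicate 1 and -0.167, -0.110 and -0.202 in the other control libraries. In the A20 siRNA libraries it was 0.0793, -0.0755, 0.155 and 0.191, and replicate 2, with the negative value, had the lowest MLH3 level of that group. MLH3 has 8358 bases of annotated exons, against a median of 4982 for tested genes. MSH6 (17722), PMS2 (11237), MGMT (6527), PMS1 (5448) and MSH3 (5329) were above this median too, and EXO1 (4137) was below it. Of these, MSH6, PMS2, MGMT and PMS1 had negative log2 fold changes, and MSH3 and EXO1 positive ones. The canonical transcript of MSH6 has only 4265 bases. Over the tested genes with a length, Spearman's rho between log2 fold change and exonic length was 0.18. The part of length in the level of MLH3 was not tested. With a correction of each library for its length trend, the log2 fold change of MLH3 was 0.11 and that of MGMT -0.13, and neither was called (adjusted p = 0.287 and 0.196, edgeR).

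Ratios between the 7 genes do not depend on how libraries are scaled. Of the 21 ratios of CPM, 3 did not overlap between the groups, and they were picked out after all had been computed. MLH3 to PMS2 was 1.74 to 1.91 in the control libraries and 2.04 to 2.36 after A20 siRNA. Of all other tested genes, 6.57% were higher relative to PMS2 in every A20 siRNA library. EXO1 to MGMT was 3.92 to 4.47 and 4.53 to 4.98, and MSH3 to MGMT was 0.123 to 0.145 and 0.145 to 0.156 (0.1449 and 0.1450 at the nearest). For ratios to MGMT, 8.49% of all other tested genes were higher in every A20 siRNA library. Both shares leave out ratios that were lower after A20 siRNA, whereas the 21 ratios were examined in both directions. No test was made of these ratios.

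The later steps of mismatch repair gave no call. All 15 genes of a list of excision and resynthesis factors were tested, and edgeR called 0 higher and 0 lower. Their median log2 fold change was 0.01. At an unadjusted p under 0.05 there was 1 of the 15, against 2171 of the 13412 tested genes. PCNA, the sliding clamp, was at 418 ± 9.04 CPM in the control samples and 417 ± 10.1 after A20 siRNA (SD, n = 4 per group). The smallest p-values belonged to RPA3, RFC2 and POLD3. RPA3, the smallest subunit of the single-strand binding protein RPA, was at 23.3, 23.8, 23.6 and 23.1 CPM in the control samples and at 22.6, 21.8, 21.4 and 18.1 CPM after A20 siRNA. Its groups did not overlap, where 3.9% of the tested genes had every A20 siRNA library below every control library. The log2 fold change of RPA3 was -0.15 (adjusted p = 0.176, edgeR). RFC2, a subunit of the clamp loader, had a log2 fold change of -0.06 (adjusted p = 0.324), and POLD3, a subunit of DNA polymerase delta, of 0.09 (adjusted p = 0.349, edgeR for all 3).

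Of 4 accessory factors, edgeR called 0. At an unadjusted p under 0.05, which 2171 of the 13412 tested genes reached, there was 1, SETD2. This enzyme, which sets the histone mark that MSH6 binds, was at 140 ± 6.41 CPM in the control samples (139.8 before rounding) and 149.5 ± 4.33 after A20 siRNA (SD, n = 4 per group), a log2 fold change of 0.10 with an adjusted p of 0.116 (edgeR). MCM8, a helicase, and FAN1, a nuclease, had log2 fold changes of 0.04 and 0.03 (adjusted p = 0.536 and 0.900, edgeR).

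The MutS homologs of meiosis were at the low end. MSH4 had 14 to 39 reads per library, with 0.565, 0.587, 0.810 and 0.592 CPM in the control samples and 1.14, 0.716, 1.19 and 1.13 CPM in the A20 siRNA samples. A20 siRNA replicate 2 lay within the control range and the other 3 above it. The log2 fold change was 0.70 (standard error 0.22), and it did not pass the threshold (adjusted p = 0.116, edgeR). MSH5 had 1 read in each of 2 libraries and none in the others, below the 3 reads that set the smallest level the depth could show. MSH5 lies in the major histocompatibility complex. Reads there that also map to alternate copies of the region would not be unique, if the genome used for mapping held such copies. Neither this nor its part in the count of MSH5 was tested.

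Among 12 other genes of alkyl and base lesion repair, the neighbours of MGMT in function, edgeR called 0 higher and 0 lower. Their median log2 fold change was 0.01. At an unadjusted p under 0.05 there was 1 of the 12, against 2171 of the 13412 tested genes. The smallest p-values belonged to MBD4, MPG and POLB. MBD4, a glycosylase for mismatches at CpG sites, had a log2 fold change of 0.07 (adjusted p = 0.307), MPG, which removes alkylated bases, of -0.10 (adjusted p = 0.425), and POLB, the gap-filling polymerase of base excision repair, of -0.07 (adjusted p = 0.470, edgeR for all 3). ALKBH2 and ALKBH3, which reverse alkyl damage directly, had log2 fold changes of -0.06 and -0.02. Of 6 proliferation markers 0 were called and 2 had an unadjusted p under 0.05, against 2171 of the 13412 tested genes. Their summed level was 1709 to 1862 CPM in the control samples and 1818 to 1886 CPM after A20 siRNA. The smallest p-values among them belonged to MKI67 (log2 fold change 0.17, adjusted p = 0.0595), TYMS (-0.07, adjusted p = 0.238) and MCM2 (-0.04, adjusted p = 0.382, edgeR for all 3).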

How the data were processed

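Gene counts of 8 RKO libraries were used. Per the methods, the authors used Trimmomatic for trimming and STAR for mapping to GRCh38, and deposited raw counts of uniquely mapping reads per gene of a GENCODE annotation, 1 column per sample and not normalized. The GENCODE release and strand setting are not given in the sources used here. Of the 57992 genes, 56948 were matched by Ensembl identifier without version to GENCODE 44, which gave symbols, coordinates and lengths. Counts were analysed in R 4.3.3 with edgeR 4.0.16 (filterByExpr with a minimum count of 10, TMM, quasi-likelihood test without covariates, Benjamini-Hochberg adjustment over 13412 genes, threshold 0.05). Standard errors were the log2 fold change divided by the square root of F. The pipeline was tested on simulated data. Alternatives were RLE, no filter, 10 counts in every sample, DESeq2 1.42.0, limma-voom (limma 3.58.1), the replicate number as a block, a length correction (loess trend per library, span 0.5), both together, and each library left out. The length of the canonical transcript was chosen as an alternative after seeing the data, and the text gives levels with it and with the planned exonic length.

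The 7 genes and the gene lists were chosen with earlier results of these data known. The text names all 7 genes, TNFAIP3, and from each list the genes called or the 3 of smallest p, the neighbouring genes and PMS2 copies with most reads. PCNA, PMS2P3, ALKBH2 and ALKBH3 were added after their values were seen. No library was a repeat of another: the chi-square per degree of freedom between replicates was 1.32 to 3.67. Deviations from the group mean correlated between same-numbered samples by -0.023 to 0.10, which by itself does not show a pairing. With the replicate number as a block, edgeR called 262 genes higher and 212 lower, against 85 and 82 without it. The labels do not say whether same-numbered samples were handled together.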

Additional observations from a re-analysis of the deposited data

Results flagged for a closer look

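For the 7 genes and TNFAIP3, each of the 16 sets of 4 libraries was examined for 1 library far from the others. There were 3, where chance gives about 0.8 (1 in 20 groups). For MLH3, control replicate 1 was at 32.8 CPM against 26.5 to 27.4 in the other control libraries, a gap of 0.860 of the group's range. Also for MLH3, A20 siRNA replicate 2 was at 29.5 CPM against 31.8 to 31.9 in its group, a gap of 0.961 of the range. For TNFAIP3, A20 siRNA replicate 2 was at 3.01 CPM against 3.40 to 3.47, a gap of 0.847 of the range. The groups share libraries, so these counts are not independent. In control replicate 1 and A20 siRNA replicate 2, the libraries found for MLH3, the trend of counts with gene length had the sign opposite to the rest of their group. The part of that trend in the level of MLH3 was not tested.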

How the results depend on the processing

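Under RLE, both other filters, DESeq2, limma-voom, the length correction, the replicate block and the block with the length correction, 0 of the 7 genes were called and each kept its direction. With the replicate block the log2 fold change of MLH3 was 0.13 (adjusted p = 0.147) and that of MGMT -0.12 (adjusted p = 0.206), and no call of the 7 changed, while SETD2 (adjusted p = 0.0339) and MKI67 (adjusted p = 0.00108) were called with the block and not in the same fit without it. With 1 library left out, 0 to 2 of the 7 were called, the 2 without control replicate 1. Over these fits PMS1 ranged from -0.0309 to 0.00482 and EXO1 from -0.0113 to 0.0308 on the log2 scale, so both turned sign, PMS1 without control replicate 1 and EXO1 without control replicate 1 or A20 siRNA replicate 3 (-0.00627). What caused this was not tested. The exact permutation test called 0 with RLE and with each library left out, where the small number of libraries leaves it little room to pass. DESeq2 gave MSH3 and TNFAIP3 no adjusted p-value (log2 fold changes 0.07 and -0.72). Over all genes, calls went from 6 higher and 6 lower without A20 siRNA replicate 3 to 567 and 430 without control replicate 1, and were 262 and 212 with the block and 314 and 310 without a filter. MSH3, at 82 to 138 reads, is the gene that depth limits most.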

Other observations

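Of all tested genes, the gene whose log2 CPM followed each of the 7 most closely over the 8 libraries was HSD17B4 for MSH6 (Pearson's r = 0.954), LMO2 for MSH3 (0.968), CASC19 for PMS2 (0.940), PLEKHF2 for EXO1 (0.982) and RPL5 for MGMT (0.982). For MLH3 it was ENSG00000280347 (0.987) and for PMS1 the low-count gene CTC-338M12.4 (0.988). These are descriptions over 8 libraries of 1 cell line, picked as the highest of 13411 values each, and they carry no test. The number of genes at r of 0.95 or more was 53 for MLH3 and 24 for MGMT, and between 0 and 5 for the other 5 genes.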
